A study of Drosophila simulans and Drosophila kikkawai and Drosophila takahashii with 176 samples.

Results

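The odorant-binding protein genes of Drosophila melanogaster were described in accessory glands (AGs) and testes. A gene was taken as a member when its FlyBase symbol begins with Obp followed by a digit, and 51 of the 17727 genes listed were members, all of them annotated as protein-coding. Obp50b and Obp50c share 1 interval in the annotation and have identical values in every library, so that they are a single measurement. Counts of members include both unless stated otherwise.

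Poly(A)-selected RNA was sequenced from 8 libraries of this species, each a pool of about 25 adult males of mixed stages, as part of a series of 176 runs from 11 species. The AG and the testis were each sampled in 2 libraries of the strain y; cn bw sp, from which the genome reference comes (G), and in 2 libraries of the strain ED10 (NG). No treatment or gene alteration is given in the labels beyond the eye and body colour mutations that name the first strain. All 4 G libraries were sequenced on a HiSeq 4000 and prepared by 1 dissector, whereas the NG libraries came from other dissectors and, in 3 of 4 cases, other HiSeq models, so that strain and dissector cannot be told apart.

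Odorant-binding proteins are small secreted proteins that carry hydrophobic molecules. They are best known from the lymph of olfactory and gustatory sensilla, where they surround the dendrites of receptor neurons, and lush, which lacks the Obp symbol, is the member of the family through which the pheromone cis-vaccenyl acetate is sensed. Several others are made in male reproductive tissue and transferred to the female in the seminal fluid, and others are found in haemolymph, fat body or glia. The family is encoded largely in tandem clusters. Here 29 of the 51 genes lie on chromosome arm 2R, and 31 lie in 9 clusters in which neighbours are less than 10000 bp apart. The longest annotated proteins of the members range from 117 to 259 amino acids, with a median of 151.

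Levels are the authors' TPM, transcript abundance scaled within a library and corrected for transcript length. The totals of the libraries were not 1000000 but ranged from 1070165 to 1959870, and read depth is not in the files. The labelled organs matched their markers. All 12 markers of AG secretory cells were called higher in the AG over both strains and all 12 markers of germline and spermatids higher in the testis, by the test described below. Acp95EF, one of the AG markers, was at 118699 and 87466 TPM in the AG of G but at 0.0332 and 0.543 TPM in the AG of NG, below its 23.7 and 40.1 TPM in the testis of NG. Markers of the other organ were also seen, in unequal amounts, and whether they are RNA carried over from that organ was not tested. The summed spermatid and germline markers stood at 3.40% and 3.32% of their testis level in the G libraries of the AG, and at 0.0629% and 0.0408% in the NG libraries. The sums are weighted to the abundant markers, and the medians over the 12 markers were 0.707% and 2.48% in the G libraries and 0.0812% and 0.0208% in the NG libraries. The AG secretory markers other than Acp95EF stood at 0.372% and 1.03% of their AG level in the G libraries of the testis, and at 0.0812% and 0.00976% in the NG libraries. Here and below each percentage is taken of the mean of the other organ in the same strain.

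Few members were seen in every library. A level of 1 TPM or more was reached by 12 members in all 4 AG libraries, by 17 members in all 4 testis libraries and by 5 members in all 8. Single AG libraries had 16 to 23 members at that level and single testis libraries 23 to 27. Another 13 members were below 1 TPM in all libraries, and Obp47a was listed at 0 throughout. Obp47b, which the study plots by name, was at 0.0455 and 0.442 TPM in the AG of G, at 0.212 and 0.00374 TPM in the testis of G, and at 0 in all 4 NG libraries. The plot of all members by library has a block of high genes in the AG, another in the testis, and a broad middle of genes near 0.

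**Figure D1:**
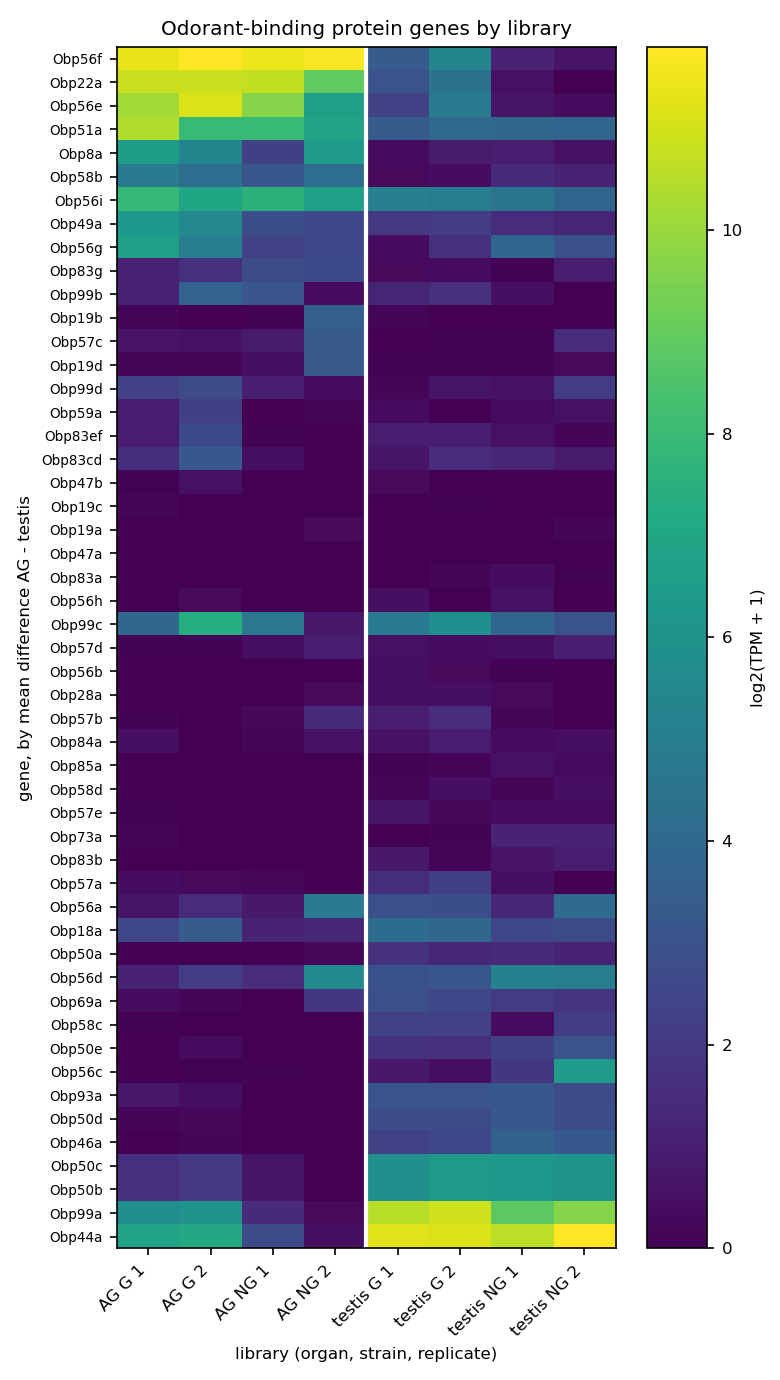
Level of each of the 51 members (rows) in the 8 libraries (columns), as log2(TPM + 1) by colour, with rows ordered by the mean difference between AG and testis and a white line between the organs. Obp56f, Obp22a and Obp56e lead in the AG, Obp44a and Obp99a lead in the testis, and Obp47a is at 0 in all columns.

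The summed level of the family was 4411 to 8602 TPM in the AG and 2283 to 4622 TPM in the testis, with Obp50b and Obp50c counted once. Different genes carried it. The members known as seminal proteins (Obp8a, Obp22a, Obp51a, Obp56e, Obp56f, Obp56g and Obp56i, 7 in all) made up 94.4% to 98.9% of the sum in each AG library and 0.735% to 2.92% in each testis library. Obp44a and Obp99a together made up 89.6% to 94.5% of the sum in each testis library. In the AG they made up 2.19% and 2.34% in the G libraries and 0.124% and 0.0138% in the NG libraries.

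The organs were compared by limma on log2(TPM + 1), over genes that reached 1 TPM in at least 2 of the 8 libraries, with Benjamini-Hochberg adjustment over all 13483 genes that passed. Of the 51 members 34 passed this filter and 17 did not. A member that passed only through the organ where it is high had to differ. Among the called members, Obp8a and Obp83g had no testis library at 1 TPM. Obp46a, Obp50a, Obp50d, Obp50e, Obp56c, Obp57a, Obp58c, Obp73a and Obp93a had no AG library at 1 TPM. The calls of these members, and any lack of overlap between their organs, are given as description only. Differences below are AG minus testis in log2(TPM + 1), given with their standard error (SE), and a gene is called at an adjusted p below 0.05. The AG and testis tables were deposited separately, and the D. melanogaster testis estimates came from earlier work by the same methods, so that every comparison of organs runs across tables.
Of the 34 members 25 were called, near the background of 71.0% of all genes tested. Of these, 10 were higher in the AG (17.4% of all genes) and 15 were higher in the testis (53.6% of all genes), or 14 with Obp50b and Obp50c as 1. The median difference was -0.39 over the members and -0.97 over all genes. The 4 AG values were all above the 4 testis values for 9 of the 34 members (12.2% of all genes) and all below them for 11 (47.2% of all genes). Both counts include members that passed the filter only through the organ where they are high, for which the filter favoured such a separation. Within G alone 25 members were called (60.8% of all genes) and within NG alone 21 (58.8% of all genes). In both strains 9 members were higher in the AG (9.77% of all genes) and 10 were higher in the testis (40.4% of all genes).
The direction split depends on the scale. Quantile normalization moved the median of all genes to 0.30 and gave 16 members higher in the AG and 9 in the testis, beside 5805 and 4701 of all genes.

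All 7 seminal members were called higher in the AG, beside 17.4% of all genes. Obp8a, one of them, passed the filter only through the AG. This list rests on what other work found in seminal fluid, but it was written with earlier results of these data known. The count is therefore a description and no independent test.
Obp56f (FBgn0043533, 2R from 19713395 to 19713976 on BDGP6) was the highest member in every AG library. It stood at 2739 and 3561 TPM in the AG of G, at 2887 and 3359.8 TPM in the AG of NG, and at 9.43, 40.1, 1.21 and 0.553 TPM in the testis libraries G 1, G 2, NG 1 and NG 2. The AG mean was 3137 TPM ± 387 (SD, n = 4) and the testis mean 12.8 TPM ± 18.6 (SD, n = 4), a ratio of 245, and the difference was 8.98 (SE 0.43, limma adjusted p = 2.88e-07). Its AG libraries lie within a narrow band and far above all testis libraries.
Obp22a (FBgn0043539, 2L from 1991381 to 1992160) was at 1864, 1853, 1706 and 490.3 TPM in AG G 1, G 2, NG 1 and NG 2. In the testis, in the same order, it was at 7.14, 20.5, 0.424 and 0.0241 TPM. The difference was 8.35 (SE 0.46, adjusted p = 6.01e-07), and AG NG 2 is the low AG library.
Obp56e (FBgn0034471, 2R from 19712345 to 19712932) ends 463 bp before the start of Obp56f. It was at 1163, 2266, 802 and 102 TPM in the AG and at 3.87, 26.6, 0.572 and 0.275 TPM in the testis. The difference was 7.40 (SE 0.73, adjusted p = 2.6e-05). As for Obp22a, AG NG 2 is the lowest of the AG libraries, but it lies above all testis libraries. Obp56e overlaps an antisense RNA, and since the counting of strand is not given in the sources used here, reads of the pair may not be separated.

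Obp51a (FBgn0043530, 2R from 15024375 to 15024839) was at 1399, 249.7, 256 and 116 TPM in the AG and at 9.52, 15.3, 14.2 and 13.1 TPM in the testis, with a difference of 4.53 (SE 0.54, adjusted p = 8.18e-05). AG G 1 was well above the other AG libraries. The summed duct and bulb markers were at 2723, 608, 849 and 387 TPM in the AG, also highest in AG G 1. Among the 6 genes of that list, Dup99B (1858, 465, 249.7 and 229.99 TPM), Est-6 (734, 55.2, 519 and 43.8 TPM), Gld (55.1, 5.84, 53.0 and 7.46 TPM) and EbpII (34.6, 30.2, 3.73 and 0 TPM) shared this. However, Est-6 and Gld were also high in AG NG 1, where Obp51a was at 256 TPM, and EbpII was nearly as high in AG G 2. Ebp was instead highest in AG G 2 (23.3 TPM) and EbpIII in AG NG 2 (105 TPM). The part of duct tissue in the level of Obp51a was not tested.
Obp56i (FBgn0043532, 2R from 19864717 to 19868714) had the closest levels in the organs among the 7, apart from Obp56g. It was at 231, 124, 193 and 103 TPM in the AG and at 33.9, 29.5, 22.2 and 12.9 TPM in the testis (difference 2.69, SE 0.34, adjusted p = 0.000116).
Obp8a (FBgn0030103, X from 9214876 to 9215699) was at 94.2, 39.6, 3.65 and 91.3 TPM in the AG and below 1 TPM in all testis libraries, from 0.286 to 0.911 TPM. The difference was 4.50 (SE 0.83, adjusted p = 0.00124), and the spread within NG, between 3.65 and 91.3 TPM, was wider than that within G.

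Obp56g (FBgn0034474, 2R from 19783484 to 19784043), known from the ejaculatory bulb and needed in males for the mating plug, was the seminal member whose organs overlapped. It was at 101, 31.2, 3.95 and 4.64 TPM in the AG and at 0.320, 2.03, 13.6 and 6.64 TPM in the testis. The mean difference of 1.92 (SE 0.46, adjusted p = 0.00528) comes from G, where it was 4.84 (SE 0.65, adjusted p = 0.000245). In NG it was -0.999 (SE 0.65, adjusted p = 0.218). The bulb markers were uneven in the same libraries. EbpII was at 34.6, 30.2, 3.73 and 0 TPM in the AG and at 0.904, 4.27, 31.3 and 0 TPM in the testis, and Ebp at 13.2, 23.3, 2.35 and 0.521 TPM and at 0.925, 3.30, 24.2 and 0.299 TPM. EbpIII, by contrast, was at 27.7, 28.3, 21.6 and 105 TPM in the AG and at 147.8, 87.0, 133.6 and 347 TPM in the testis, highest in the NG 2 library of each organ. Obp56g, Ebp and EbpII are high in the AG of G and in testis NG 1, whereas testis NG 2 has Obp56g with hardly any Ebp or EbpII. The part of bulb tissue in the level of Obp56g was not tested.

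Another 3 members were called higher in the AG. Obp49a, known in taste sensilla, where it takes part in the suppression of sweet taste by bitter compounds, was at 77.7, 45.7, 6.18 and 4.69 TPM in the AG and at 2.83, 3.13, 1.86 and 1.35 TPM in the testis (difference 2.62, SE 0.28, adjusted p = 4.11e-05). Obp58b was at 27.5, 17.8, 7.80 and 17.8 TPM in the AG and at 0.223, 0.313, 1.63 and 1.25 TPM in the testis (difference 3.30, SE 0.32, adjusted p = 2.18e-05). Obp83g, the lowest of the members called higher in the AG, was at 1.13, 2.15, 5.65 and 5.22 TPM in the AG and between 0.0861 and 0.936 TPM in the testis (difference 1.60, SE 0.25, adjusted p = 0.000455). For all 3 the AG libraries were above all testis libraries, which the filter favoured for Obp83g.

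**Figure D2:**
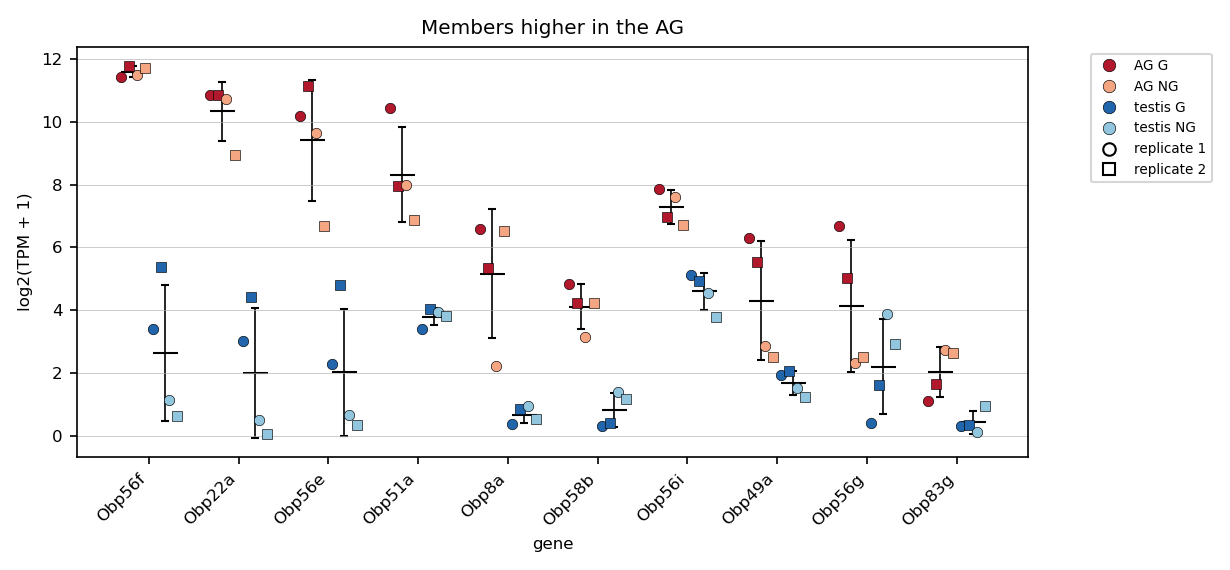
The 10 members called higher in the AG, as log2(TPM + 1) in each library (colour, organ and strain; circle and square, replicates 1 and 2), with the mean of each organ as a bar and its SD over 4 libraries as whiskers. The organs overlap only for Obp56g, whose AG libraries of NG, at 3.95 and 4.64 TPM, lie among the testis libraries.

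Obp44a and Obp99a were the highest members in every testis library. Obp44a (FBgn0033268, 2R from 8134170 to 8135315), known from glia as a carrier of lipids, was at 2454, 2280.3, 1586 and 3515 TPM in testis G 1, G 2, NG 1 and NG 2. In the AG it was at 119, 138.2, 5.75 and 0.392 TPM. Its difference was -6.89 (SE 0.51, adjusted p = 3.65e-06). Obp99a (FBgn0039678, 3R from 29671657 to 29672334) was at 1494, 1988, 459.7 and 797 TPM in the testis and at 54.1, 63.1, 1.62 and 0.217 TPM in the AG, with a difference of -6.63 (SE 0.33, adjusted p = 3.63e-07). Both genes were far lower in the AG of NG than in the AG of G, while neither was called between the strains in the testis. Whether Obp44a or Obp99a is transcribed in germline or somatic cells of the testis cannot be told from bulk RNA, in which fewer cells of a type and less RNA per cell cannot be told apart.
Obp44a overlaps Pabp2 on the other strand, with the limit on strand given for Obp56e.

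The cluster of Obp50 genes was higher in the testis as a whole. Its 5 genes lie within 5055 bp of 2R, from 14370331 to 14375385, and each was called. Obp50b and Obp50c are a single measurement, and Obp50a, Obp50d and Obp50e passed the filter only through the testis. Obp50b (with Obp50c) was at 59.5, 84.2, 77.0 and 66.8 TPM in the testis and at 2.14, 2.96, 0.573 and 0 TPM in the AG, a difference of -5.10 (SE 0.28, adjusted p = 5.44e-07). Obp50d was at 5.84, 5.73, 8.43 and 5.85 TPM in the testis and at 0.135, 0.198, 0 and 0 TPM in the AG (difference -2.77, SE 0.21). Obp50e was at 2.28, 1.99, 3.78 and 7.03 TPM in the testis, and in the AG it was at 0.274 TPM in G 2 and at 0 in the other libraries. Obp50a was between 1.24 and 2.18 TPM in the testis, and at 0 in the AG except 0.208 TPM in NG 2. For each of the 5 genes all testis values were above all AG values, which the filter favoured for Obp50a, Obp50d and Obp50e. Obp50b stood well above its neighbours.
Obp46a, at 3.91, 4.68, 11.6 and 8.50 TPM in the testis, was at 0.140 TPM in AG G 2 and at 0 in the other AG libraries (difference -2.88, SE 0.21, adjusted p = 3.15e-06). Obp93a was at 7.35, 7.71, 8.65 and 5.49 TPM in the testis and at 0.764, 0.342, 0 and 0 TPM in the AG (difference -2.73, SE 0.23, adjusted p = 9.6e-06). Obp46a and Obp93a also passed the filter only through the testis.

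Other members called higher in the testis were low or rested on few libraries. Obp18a was at 16.8, 14.2, 4.76 and 5.63 TPM in the testis and at 4.69, 9.51, 1.24 and 1.33 TPM in the AG (difference -1.26, SE 0.28, adjusted p = 0.00376), so that the organs overlap across strains but not within a strain. Obp69a, an antennal member that takes part in the response to a pheromone, was at 6.40, 4.79, 3.10 and 2.51 TPM in the testis and at 0.261, 0.146, 0 and 2.61 TPM in the AG (difference -1.72, SE 0.38, adjusted p = 0.00359). Obp58c was at 3.94, 4.02, 0.274 and 3.46 TPM in the testis, and its only AG value above 0 was 0.0349 TPM in G 1. Obp56c was at 0.765, 0.369, 2.61 and 90.6 TPM in the testis and at most 0.0893 TPM in the AG. Its difference was -2.35 (SE 0.84, adjusted p = 0.0334). Without testis NG 1 or testis NG 2 it did not pass the filter and was not tested. Without any 1 of testis G 1, testis G 2, AG G 1 or AG G 2 the difference stayed at -2.45 to -2.26 but was not called.
Obp57a (1.93 and 3.64 TPM in the testis of G, 0.344 and 0 TPM in the testis of NG, at most 0.294 TPM in the AG) and Obp73a (0 and 0.0989 TPM in the testis of G, 1.21 and 1.17 TPM in the testis of NG, at most 0.123 TPM in the AG) were near the floor of the filter, and each reached 1 TPM in 1 strain. Obp73a overlaps Ogdh on the same strand. Under quantile normalization Obp18a, Obp57a and Obp73a changed sign, and Obp50a (-0.37, adjusted p = 0.211), Obp69a (-0.59, adjusted p = 0.261) and Obp56c (-1.39, adjusted p = 0.17) kept their sign, with none of the 6 called.

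**Figure D3:**
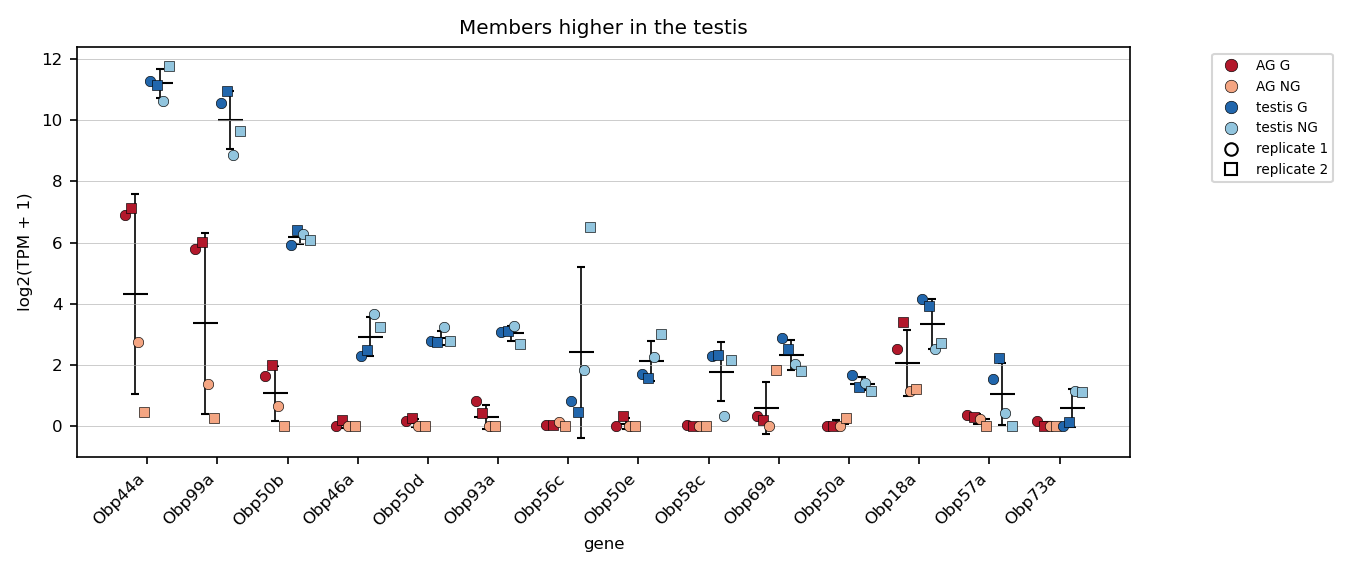
The members called higher in the testis, with Obp50b standing for Obp50c too, as log2(TPM + 1) in each library (colour, organ and strain; circle and square, replicates 1 and 2), with the mean of each organ as a bar and its SD over 4 libraries as whiskers. Obp44a and Obp99a have AG libraries of G at 54.1 TPM or more and AG libraries of NG at 5.75 TPM or less, and Obp56c has a single high library, testis NG 2, at 90.6 TPM.

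Neighbouring genes did not always share an organ. In the Obp56a to Obp56f cluster (16254 bp), Obp56e and Obp56f were higher in the AG and Obp56c in the testis. Obp56b was at 0 in the AG and at most 0.392 TPM in the testis, and Obp56a and Obp56d were not called. Obp58b, higher in the AG, and Obp58c, higher in the testis, lie in 1 cluster of 5078 bp on 2R with Obp58d and Obp59a. In the cluster of Obp83cd, Obp83ef and Obp83g on 3R only Obp83g was called, with the first 2 at differences of 0.23 (SE 0.39) and 0.24 (SE 0.35). Under quantile normalization Obp83cd was called higher in the AG (1.38, adjusted p = 0.00657).

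Members known from sensilla were counted by group, beside a background of 71.0% of all genes called, 17.4% higher in the AG and 53.6% higher in the testis. Of 10 antennal members 4 passed the filter, and 1 (Obp69a) was called, higher in the testis. Of 12 listed taste members 11 were found, 6 passed, 1 (Obp49a) was higher in the AG and 1 (Obp57a) higher in the testis. Of the 4 members known from fat body, haemolymph or glia, Obp44a and Obp99a were called and Obp99b and Obp99c were not. The median difference was -1.17 over the 4 antennal members tested, 0.24 over the 6 taste members and -3.42 over the last 4, beside -0.97 over all genes and 4.53 over the 7 seminal members.
The antennal pair Obp83a and Obp83b, which in the antenna shape the end of the odour response, and Obp28a were at most 0.852 TPM in any library. Of the 8 markers of olfactory sensilla, Snmp1 was at 1.94 to 5.82 TPM and the others were low. The odorant co-receptor Orco was at most 0.00217 TPM in the AG and between 0.970 and 2.09 TPM in the testis, and lush was at most 0.4999 TPM. Of 18 genes that work with odorant-binding proteins in sensilla or resemble them in role, 17 were found and 8 passed the filter. Of these 8, 6 were called, 1 higher in the AG and 5 higher in the testis, beside 71.0%, 17.4% and 53.6% of all genes. Est-6, an esterase also known from the ejaculatory duct, was called higher in the AG, and Orco, Snmp2, Ir25a, a10 and EbpIII were called higher in the testis.

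Members without an organ call varied widely between libraries. Obp99c was at 14.7, 156, 24.7 and 0.752 TPM in the AG and at 28.6, 57.3, 13.3 and 7.05 TPM in the testis (difference -0.21, 95% interval -2.39 to 1.97). Its highest AG library, G 2, also had the highest sum of fat body markers in the AG, 39.5 TPM beside 3.65 to 10.1 TPM, with apolpp, the precursor of the main haemolymph lipid carrier, at 14.8 TPM beside at most 1.59 TPM. That library also had the highest AG sums of haemocyte (54.3 TPM), muscle (1631 TPM), neuron (19.04 TPM) and olfactory sensillum (6.43 TPM) markers. The part of these tissues in the level of Obp99c was not tested.
Obp56d was at 1.21, 3.19, 1.79 and 49.6 TPM in the AG and at 6.93, 7.97, 35.6 and 30.9 TPM in the testis (difference -1.50, 95% interval -3.31 to 0.31). Without AG NG 2 it was called higher in the testis (-2.54, limma adjusted p = 0.000167), as it was without both HiSeq 2500 libraries (-2.59, adjusted p = 0.000331), and without AG NG 1 the difference was -0.45 (adjusted p = 0.283). Other members high in AG NG 2, named after their values were seen, were Obp56a at 28.1 TPM, Obp19b at 10.7 TPM, Obp19d at 8.70 TPM and Obp57c at 8.70 TPM, each at most 1.85 TPM in the other AG libraries. In AG NG 2 the summed muscle markers were at 1468 TPM and the neuron markers at 18.1 TPM, close to the highest AG sums, and EbpIII (105 TPM) and elav (3.25 TPM), a neuronal marker, were at their highest AG levels. This library shared its dissector, its runs and its HiSeq model, the 2500, with testis NG 2. The part of other tissues or of the batch in these levels was not tested. The other members outside the naming rule reached at most 12.3 TPM in any library, a value of Obp99b in AG G 2.

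The strains were compared within each organ as NG minus G, with 2 libraries a group and the spread pooled over the 4 groups. In the AG 10 of the 34 members were called, 1 higher and 9 lower in NG, beside 14.7% of all genes (2.88% higher and 11.8% lower). The 9 include both Obp50b and Obp50c. Quantile normalization gave 3 higher and 7 lower, and a median-ratio scale chosen after the library totals were seen gave 0 higher and 11 lower. Obp44a was lower in NG, with a difference of -5.40 (SE 0.72, adjusted p = 0.00125), and Obp99a had a difference of -5.06 (SE 0.47, adjusted p = 0.000318). Both are testis-high members whose AG percentages, like the summed testis markers, were higher in G than in NG, and other members shared this. As a percentage of its testis mean, Obp44a was at 5.04 and 5.84 in the AG of G and at 0.225 and 0.0154 in the AG of NG, Obp99a at 3.11 and 3.63 and at 0.258 and 0.0345, and Obp50b at 2.97 and 4.12 and at 0.797 and 0. Obp50d was at 2.34 and 3.42 in G and at 0 and 0 in NG, and Obp93a at 10.1 and 4.54 and at 0 and 0. Obp50a, Obp57a and Obp69a instead had their highest percentages in an NG library (14.3, 102 and 93.1). Obp18a, which was also called lower in NG, was at 30.3 and 61.3 in G and at 23.8 and 25.6 in NG. These values were above the summed markers in every AG library. The highest single testis marker in AG NG 2 stood at 18.1%. The medians over the testis markers in G, 0.707% and 2.48%, were below the values of Obp44a and Obp99a. Obp50b was also called (difference -1.49, SE 0.39, adjusted p = 0.038), but not with libraries rescaled to 1000000, with no filter, under quantile normalization, without both HiSeq 2500 libraries, with that pair as a batch term (-1.28, adjusted p = 0.146), or without any 1 of AG G 2, AG NG 2 or the 4 testis libraries. The part of testis RNA in these strain differences was not tested.

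Members other than Obp44a, Obp99a and Obp50b also differed between the strains in the AG. Obp49a was lower in the AG of NG (difference -3.24, SE 0.39, adjusted p = 0.000805), as was Obp56g (-3.44, SE 0.65, adjusted p = 0.00793). Obp83g was the member called higher in NG (1.31, SE 0.35, adjusted p = 0.0416). All testis values of Obp49a were below its lowest AG value. Obp18a (-1.76, adjusted p = 0.0199), Obp83cd (-2.16, adjusted p = 0.0338) and Obp99d (-1.82, adjusted p = 0.0489) were lower in NG at low levels. Obp83cd was at 1.88 and 8.40 TPM in G and at 0.354 and 0 TPM in NG, and Obp99d at 3.81 and 5.66 TPM in G and at 0.997 and 0.291 TPM in NG. The 6 seminal members other than Obp56g were not called. Obp56f was at -0.00 (95% interval -1.40 to 1.39), Obp22a at -1.02 (-2.52 to 0.48), Obp56e at -2.50 (-4.89 to -0.11, adjusted p = 0.16) and Obp51a at -1.77 (-3.51 to -0.03, adjusted p = 0.17). The count was 15 without AG NG 1, 5 without AG NG 2, and 4 without testis G 1 or testis G 2. The calls of Obp44a, Obp49a, Obp56g and Obp99a were kept in every alternative run, and the other 6 were each lost in some.

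**Figure D4:**
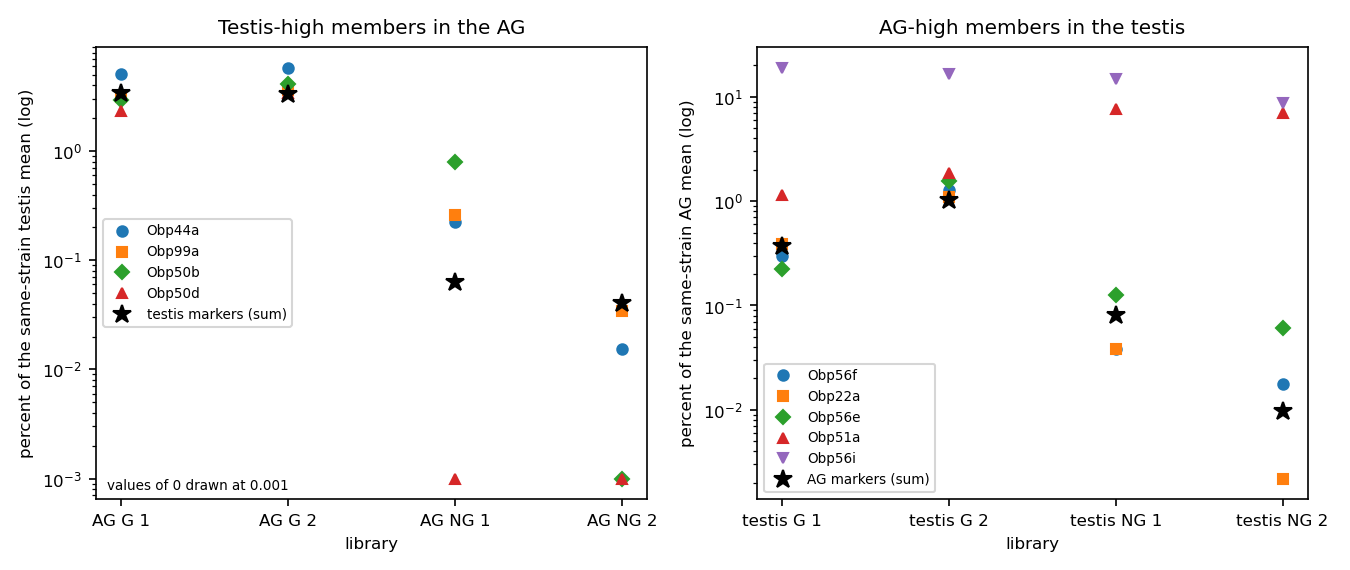
Left, testis-high members in each AG library as a percentage of their mean in the testis of the same strain. Right, AG-high members in each testis library as a percentage of their mean in the AG of the same strain. Both vertical axes are logarithmic and stars give the summed markers of the other organ (without Acp95EF). Obp44a, Obp99a and Obp50b lie at 2.97 to 5.84 in the AG of G, beside markers at 3.40 and 3.32, and Obp56i lies at 8.67 to 19.05 in the testis, above all the markers.

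In the testis 4 of the 34 members were called, 1 higher and 3 lower in NG, beside 5.22% of all genes (1.92% higher and 3.30% lower). The split was 0 and 3 under quantile normalization, 0 and 4 on the median-ratio scale and 2 and 3 with libraries rescaled to 1000000. Obp56f (-3.48, SE 0.61, adjusted p = 0.014) and Obp22a (-3.45, SE 0.65, adjusted p = 0.0197) were lower in NG, and both are AG genes present in the testis at a small share of their AG level. As a percentage of its AG mean, Obp56f was at 0.2995 and 1.27 in the testis of G and at 0.0386 and 0.0177 in NG, beside AG markers at 0.372 and 1.03 and at 0.0812 and 0.00976. Obp22a followed at 0.384, 1.104, 0.0386 and 0.0022, and Obp56e, which was not called, at 0.226, 1.55, 0.127 and 0.0609. Obp51a, at 1.15, 1.86, 7.62 and 7.05, and Obp56i, at 19.05, 16.6, 14.96 and 8.67, were above the markers in all 4 libraries. The part of AG RNA in these values was not tested.
Obp57a was lower in NG (-1.67, SE 0.29, adjusted p = 0.0135) and Obp73a higher (1.06, SE 0.19, adjusted p = 0.015), both at levels below 4 TPM. Obp57a passed the filter only through the testis of G and Obp73a only through the testis of NG. A strain difference was thus built in for both, and their calls are given as description only. No member was called by limma without testis G 2, with 6 members at an unadjusted p below 0.05, and 1 was called without testis G 1 or testis NG 2. The count was 2 without testis NG 1 and 7 without AG NG 1.

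The interaction is the strain difference in the AG minus that in the testis, which tests whether the strain difference depends on the organ. It was called for 6 members, 1 positive and 5 negative, beside 10.8% of all genes (2.20% positive and 8.61% negative). The split was 3 and 4 under quantile normalization and 0 and 7 on the median-ratio scale. Obp56g had the largest value, -5.84 (SE 0.92, adjusted p = 0.00626), since it was lower in NG in the AG and at higher values in NG in the testis, where its difference of 2.40 was not called (adjusted p = 0.0884). Obp44a (-5.40, SE 1.02, adjusted p = 0.0122) and Obp99a (-3.55, SE 0.67, adjusted p = 0.0122) differed between strains by more in the AG than in the testis, beside the testis markers given above. For Obp49a (-2.63, SE 0.56, adjusted p = 0.0193) the strain difference was again larger in the AG. Obp56f had a positive value (3.48, SE 0.86, adjusted p = 0.0374), with the strain difference in the testis, and Obp73a a small negative one (-1.16, SE 0.27, adjusted p = 0.0278). The call of Obp73a, which passed the filter only through the testis of NG, is given as description only. Without testis G 1 or without testis G 2 the interaction was called for 1 member, and without testis NG 2 for 2.

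**Figure D5:**
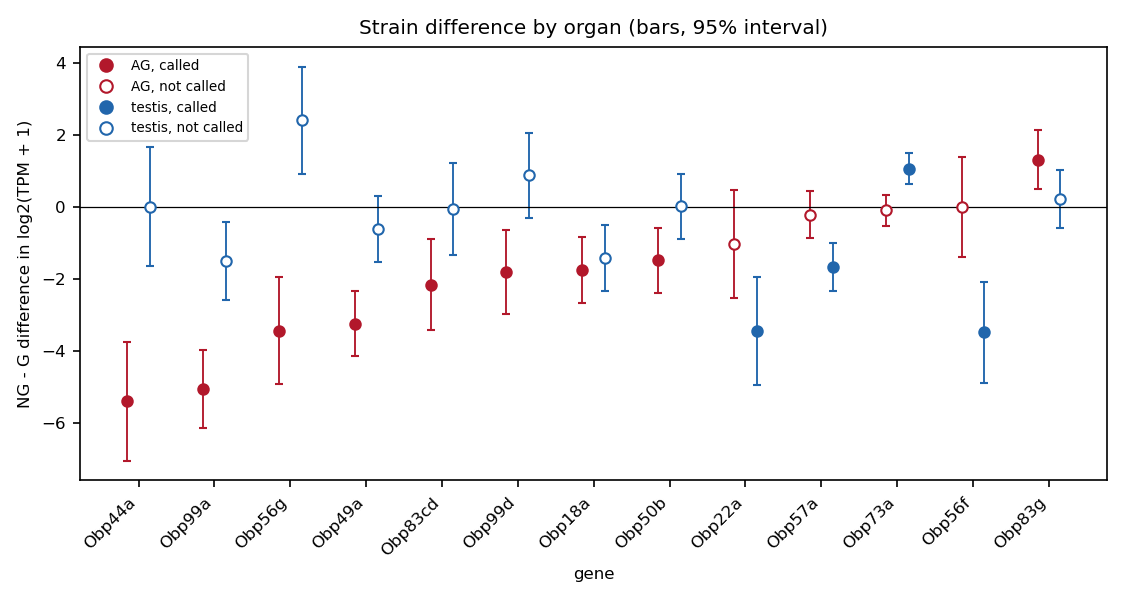
Strain difference, NG minus G in log2(TPM + 1), in the AG and in the testis for members called in a strain comparison or the interaction (Obp50b stands for Obp50c), with 95% intervals and filled symbols where called. Obp44a and Obp99a have AG differences of -5.40 and -5.06, Obp56g has differences of opposite sign in the organs, and Obp56f is called in the testis, at -3.48, and not in the AG.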

How the data were processed

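Directional, poly(A)-selected libraries were read in paired ends. The authors aligned reads with STAR (2.5.3) and estimated TPM per gene with StringTie (1.3.4 in the submitters' processing notes), on D. melanogaster release 6. The paper names a later version of StringTie, so the sources differ on this. The deposited TPM are read as a signal, because their library totals were not 1000000. Runs of a library (12 runs, 8 libraries) shared 1 column, 0 columns were left out, and no counts were used. Symbols came from a FlyBase name table (17502 of 17727 genes matched) and coordinates from BDGP6. The members, marker lists and gene lists were chosen with earlier results of these data known. Named with values in full were members called in a comparison, with a mean of at least 10 TPM in an organ, in the seminal list, or plotted by the study.

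Values were tested as log2(TPM + 1) with limma 3.58.1 in R 4.3.3, with an intensity trend and 4 group means, after a filter of 1 TPM in 2 libraries, and the code was tested on simulated data. Replicate numbers follow accession order. The study calls replicates biological. Fold changes on this scale understate those of low genes. Alternatives covered the pseudocount (0.1), the filter, the scale of libraries, the genes tested, the trend, the sequencer and each library left out. Python 3.11.15 made summaries and plots. Other species were not analysed here.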

Additional observations from a re-analysis of the deposited data

Results flagged for a closer look

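Within the 4 libraries of an organ, a library was singled out when its gap to the nearest other, as a share of the whole range, exceeded Dixon's 95% limit for 4 values. Chance flags about 1 in 20 groups, and 17 of 60 groups of the 30 named members were singled out. That rate holds for 4 normally distributed values of 1 population. Each group here pools untransformed TPM of 2 strains, often with values near 0. The 17 of 60 therefore cannot be read as an excess over 1 in 20. A group with 3 libraries at 0, as for Obp46a, Obp50a, Obp50e and Obp58c in the AG, is singled out by construction. In the AG these were Obp22a in NG 2, the low library at 490.3 TPM, Obp51a in G 1 at 1399 TPM, Obp99c in G 2 at 156 TPM, Obp56d in NG 2 at 49.6 TPM and Obp69a in NG 2 at 2.61 TPM. Levels below 1 TPM in the AG gave Obp46a in G 2 at 0.140 TPM, Obp47b in G 2 at 0.442 TPM, Obp50a in NG 2 at 0.208 TPM, Obp50e in G 2 at 0.274 TPM, Obp58c in G 1 at 0.0349 TPM and Obp73a in G 1 at 0.123 TPM. In the testis these were Obp56c in NG 2 at 90.6 TPM, Obp56e in G 2 at 26.6 TPM, Obp50d in NG 1 at 8.43 TPM, Obp99d in NG 2 at 3.21 TPM, Obp47b in G 1 at 0.212 TPM and Obp58c in NG 1, the low library, at 0.274 TPM.

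The strain difference differed between the organs, by the interaction in limma, for Obp56g (-5.84), Obp44a (-5.40), Obp99a (-3.55), Obp49a (-2.63), Obp73a (-1.16) and Obp56f (3.48). Among these, Obp73a passed the filter only through the testis of NG.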

How the results depend on the processing

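The organ comparison gave 21 to 29 called members over the alternatives run, beside 25, and 19 to 25 of the 25 calls were kept with the same sign in the alternatives over both strains. Obp56c lost its call, or was not tested, in more alternatives than any other member. Under quantile normalization 3 organ differences changed sign and were not called, Obp18a at 0.34, Obp57a at 0.12 and Obp73a at 0.047. The strain comparison in the AG (10 members) gave 5 with libraries rescaled to 1000000 and 5 with no filter on low values, and between 4 and 15 with 1 library left out. The strain comparison in the testis (4 members) gave 2 with no filter, and between 0 and 7 with 1 library left out. The interaction (6 members) gave between 1 and 8 with 1 library left out. The numbers of members at 1 TPM or more in an organ and of members without overlap kept within 1.5 times under each alternative. The cause of these changes was not tested, apart from fewer libraries or genes in a fit. No paired analysis was possible because the replicate numbers follow accession order. The G libraries of both organs share dissector and sequencer, but their run labels differ by library and cannot pair them. Only 1 pair of libraries, NG 2 of the AG and of the testis, shares run labels as well as dissector and sequencer. With that pair as a batch term, chosen after the data were seen, 27 members were called between the organs, 6 between the strains in the AG (0 higher and 6 lower in NG), 4 in the testis and 9 for the interaction. Depth is unknown here, so no counting error can be given for levels near 0.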
